A study of Homo sapiens with 8 samples.

Results

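The 49 genes described here encode the nuclear pore and the receptors that carry cargo through it. The rule takes them by gene symbol, as the numbered NUP genes, the importins (KPNA, KPNB, IPO), the transportins (TNPO1 to TNPO3) and the exportins (XPO), together with RAN, RANBP2, TPR, CSE1L, NDC1 and AAAS, and they are 49 of the 14526 genes in the expression table. The study asked how sodium benzoate (SB), a food preservative and a drug, changes gene expression in cultured human cells labelled HepG2, a liver tumour line. RNA-seq was done on 4 control samples, grown in DMEM with serum, and on 4 samples of the same cells kept with SB at 10 mM for 24 h before harvest. Values are RPKM, read numbers divided by gene length and by sequencing depth, on library sizes the authors had scaled, and between 36964791 and 44846247 reads per sample lay behind them. KPNA7 and NUP210L have no row in the table used here, and NUP58 and NUP42 stand there under their older symbols NUPL1 and NUPL2, which the rule does not take.

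The cell label was checked first. Of 20 hepatocyte genes, 18 have no row in the table used here, among them ALB, AFP, APOA1 and HNF4A. TF, the gene for transferrin, was near 0 and measured 0.192 ± 0.0188 RPKM in control and 0.379 ± 0.0748 RPKM in SB (SD, n = 4 each). The defining liver genes named here thus had no value or one near 0, and the samples are called here by their treatment. No leukocyte or endothelial marker has a row, and 3 of 4 fibroblast markers do, of which COL3A1 fell from 2.49 to 1.5 RPKM, LUM rose from 0.347 to 0.61 RPKM, and COL1A1, at 4.86 and 4.10 RPKM, did not pass the test with all samples (log2 fold change -0.19, limma adjusted p = 0.133) but was lower without control replicate 1 (-0.31, limma adjusted p = 2.38e-06). The sum of those 3 markers was 6.13 RPKM in control replicate 1, 8.11 to 8.32 RPKM in the other controls and 6.07 to 6.29 RPKM in SB, and its part in the results was not tested. Control replicate 1 stood apart from the other controls: base composition accounted for 53.3% of the variance, over 14088 genes, of its difference from them. The main counts are therefore also given without it.

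Nuclear pores are large rings set in the nuclear envelope. An outer ring (the Y complex) and an inner ring form the scaffold, membrane nucleoporins anchor it, and nucleoporins rich in phenylalanine-glycine repeats line the channel and give the barrier its selectivity. Importins bind cargo in the cytoplasm and release it in the nucleus on meeting RAN bound to GTP, exportins do the reverse, and mRNA mostly leaves through a separate receptor, NXF1 with NXT1. Growing and dividing cells build pores continuously and use the same importins again in mitosis.

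The bases just upstream of 4 pore or transport genes with changes described below are shown. CSE1L, NUP155 and NUP107 had the largest falls of the exportins, the inner ring and the outer ring, and NUP210 had the largest rise of all members. Some members of other groups fell more than NUP107, such as IPO11 and NUP88 (log2 fold changes -0.55 and -0.53), and are not shown. The stretches are on hg38, read 5′ to 3′ on the gene's strand, and end at the base before the annotated start of the gene; they were cut from RefSeq promoter windows of GRCh38.p14. Capitals mark matches, on either strand, to the CCAAT box (CCAAT), the E2F motif (TTNGCGC), the GC box (GGGCGG), the ETS motif (CCGGAAG), the CHR motif (TTTGAA) and the core of the NRF1 motif (GCATGCGC), which can overlap one another. CSE1L lies on the plus strand of chromosome 20 at chr20:49046246-49096960, and the stretch before it, chr20:49046062-49046245, holds a CCAAT box and overlaps an exon of the non-coding RNA gene CSE1L-DT. NUP155 lies on the minus strand at chr5:37288137-37371106, and its stretch, chr5:37371107-37371356, holds a GC box. NUP107 lies on the plus strand at chr12:68686951-68745809, and its stretch, chr12:68686728-68686950, holds a CCAAT box, an E2F match and the palindromic NRF1 motif. NUP210 lies on the minus strand at chr3:13316235-13420322, and its stretch, chr3:13420323-13420572, holds a GC box.
CSE1L: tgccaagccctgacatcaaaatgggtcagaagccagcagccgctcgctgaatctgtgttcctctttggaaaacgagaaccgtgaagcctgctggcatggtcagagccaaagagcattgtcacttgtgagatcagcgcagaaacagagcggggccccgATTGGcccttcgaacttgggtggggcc
NUP155: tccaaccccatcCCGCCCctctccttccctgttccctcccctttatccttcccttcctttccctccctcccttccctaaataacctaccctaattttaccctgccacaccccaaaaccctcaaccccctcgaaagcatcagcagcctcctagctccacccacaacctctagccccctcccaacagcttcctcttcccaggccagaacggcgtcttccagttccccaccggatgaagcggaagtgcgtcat
NUP107: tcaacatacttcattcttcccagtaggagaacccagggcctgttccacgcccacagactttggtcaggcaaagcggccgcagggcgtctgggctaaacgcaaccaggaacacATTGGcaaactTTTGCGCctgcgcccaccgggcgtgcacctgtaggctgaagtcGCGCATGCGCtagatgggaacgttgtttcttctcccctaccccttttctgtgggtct
NUP210: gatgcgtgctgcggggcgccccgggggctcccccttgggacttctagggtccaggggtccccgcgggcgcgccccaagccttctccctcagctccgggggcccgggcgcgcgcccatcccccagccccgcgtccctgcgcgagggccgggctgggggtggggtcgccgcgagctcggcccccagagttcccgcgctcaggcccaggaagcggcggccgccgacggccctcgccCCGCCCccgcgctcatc

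Over the members with a RefSeq window (44 of 49, from 250 bases before to 50 after the start; KPNB1, KPNA4, KPNA5, NUP43 and XPO7 have none), the E2F motif was found in 12, or 27.3%, against 15.5% of the 10651 table genes with a window and 7.81% of all 35116 windows. Members and table genes were counted once each, by a match in any of their windows. The share of all windows counts single windows, so it is not on the same scale. The CHR motif, a cell-cycle promoter element, was in 13 members (29.5%, against 13.7% of table genes and 15.2% of all windows). The YY1 motif (AAGATGGCG) was in 5 (11.4%, against 4.51% and 1.75%), and the ETS motif in 12 (27.3%, against 21.1% and 10.3%). The CCAAT box was in 21 (47.7%, against 43.1% and 34.6%), the palindromic NRF1 motif (its core preceded by GC) in 3 (6.82%, against 2.55% and 1.24%), and the GC box in 27 (61.4%, against 76.7% and 45.0%). All 5 members with the YY1 motif were among the 25 matched genes that were lower in SB. The E2F motif was in 9 of those 25, in 2 of the 5 matched genes that were higher and in 1 of the 14 that did not pass. In the same order the CHR motif was in 9, 3 and 1, and the ETS motif in 9, 1 and 2. The CCAAT box was in 13, 2 and 6, the GC box in 14, 4 and 9, and the palindromic NRF1 motif in 1, 1 and 1. These are letter matches, given as a description, and no test of them was made.

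More pore and transport genes fell than rose in SB. A gene was called where its limma p, fitted on log2(RPKM + 1) and adjusted by Benjamini and Hochberg's method across the 14526 genes, was below 0.05. On this rule 29 members were lower, 6 were higher and 14 did not pass. Among the 14526 genes 65.6% passed, 33.0% higher and 32.6% lower, so a call by itself was common and the members' counts are read against these shares. No test of the list was made. Without control replicate 1 the counts were 31 lower and 8 higher, against 37.9% and 37.6% of all genes, with KPNA6 and IPO13 gained as lower and XPOT and NUP62CL as higher. The median log2 fold change of the members was -0.21, against 0.00 for all genes. The groups did not overlap, all 4 samples of one lying outside the range of the other, in 29 members on the lower side and 4 on the higher side, against 30.5% and 31.0% of all genes. The summed RPKM of the 49 genes was 2812 to 2911 in control and 2437 to 2492 in SB. The summed RPKM of the whole table also fell, from between 403166 and 408246 to between 354642 and 356905. In bulk samples, fewer cells that express a gene and less RNA per cell cannot be told apart.

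**Figure D1:**
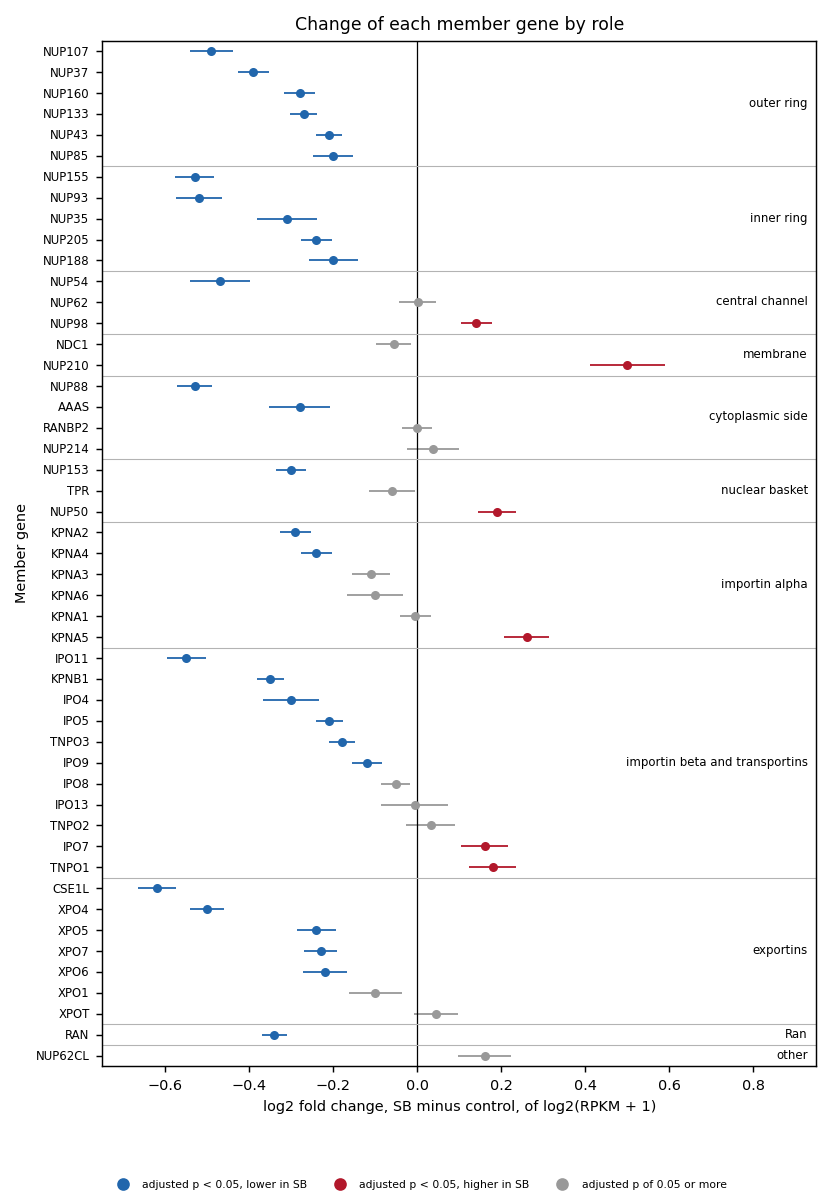
Log2 fold change (SB minus control, on log2(RPKM + 1)) of the 49 members, one point per gene with its standard error, grouped by role; blue points passed the threshold as lower, red as higher, and grey points did not pass. All 6 outer ring genes and all 5 inner ring genes sit left of 0, CSE1L is farthest left at -0.62 and NUP210 farthest right at 0.50.

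The changes were moderate in size. CSE1L had the largest fall of the members, where the mean fell by 35.1%, and 366 of the 14526 genes had a change as low or lower on the log2 scale. NUP210, with the largest rise, stood at place 721 counted from the largest rise. The cumulative plot of changes shows the members' curve to the left of that of all genes over most of the range, with few members beyond a log2 change of 0.5 in either direction.

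**Figure D2:**
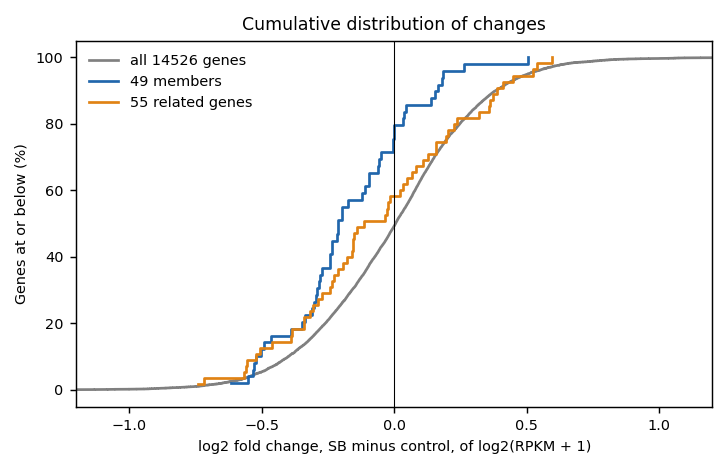
Cumulative share of genes (per cent, vertical axis) at or below each log2 fold change (SB minus control, horizontal axis) for all 14526 genes, the 49 members and 55 related transport genes outside the rule. The curve of the members crosses 50% near their median of -0.21, that of all genes at 0.00 and that of the related genes near -0.11.

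The outer ring genes listed for this group fell. All 6, NUP107, NUP37, NUP160, NUP133, NUP43 and NUP85 of the Y complex, were lower in SB with no overlap between groups. Of all genes, 32.6% were lower and 30.5% lay lower without overlap. The median log2 fold change of the 6 was -0.28. Summed over the 6 genes, the ring measured 341 to 351 RPKM in control and 276 to 283 RPKM in SB. The summed RPKM of the whole table fell too, as given above. NUP107, a core scaffold subunit of the complex, measured 66.2, 56.5, 60.0 and 57.9 RPKM in control replicates 1 to 4 and 43.9, 40.7, 42.6 and 42.7 RPKM in SB replicates 1 to 4. Every SB value lay below every control value, and the mean fell by 29.4%, from 60.2 ± 4.29 to 42.5 ± 1.32 RPKM (log2 fold change -0.49, SE 0.052, limma adjusted p = 2.78e-05). The other 5 changed less, from -0.39 for NUP37 to -0.20 for NUP85. SEH1L, SEC13 and AHCTF1, also Y complex subunits, carry symbols outside the rule. They were lower as well, with log2 fold changes of -0.23, -0.39 and -0.15 (limma adjusted p = 0.00183, 9.96e-05 and 0.0251). A further Y complex protein, NUP96, is made from the NUP98 gene, which is listed with the central channel and rose.

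The inner ring moved the same way in all 5 of its genes (NUP155, NUP93, NUP35, NUP205 and NUP188), with a median log2 fold change of -0.31. All 5 passed as lower, against 32.6% of all genes, and 4 lay lower without overlap, against 30.5%. Their summed levels were 242 to 273 RPKM in control and 202 to 206 RPKM in SB, where the sum of the whole table was lower too. NUP155, which bridges the ring to the membrane, measured 50.8, 57.2, 53.0 and 58.1 RPKM in control and 38.2, 36.8, 37.3 and 37.5 RPKM in SB. Its lowest control sample stood well above its highest SB sample, and the mean fell by 31.6% (log2 fold change -0.53, SE 0.047, limma adjusted p = 8.73e-06). NUP93, the linker that holds the channel nucleoporins to the ring, measured 40.6, 46.1, 47.2 and 48.9 RPKM in control and 30.9, 31.5, 31.7 and 31.7 RPKM in SB. Control replicate 1 was the lowest control for both genes. NUP93 fell by 31.2% (log2 fold change -0.52, SE 0.054, limma adjusted p = 2.5e-05), and -0.58 without control replicate 1. NUP188 passed (log2 fold change -0.20, limma adjusted p = 0.0154), although its control replicate 1, at 51.6 RPKM, lay inside the SB range of 50.5 to 51.7 RPKM.

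**Figure D3:**
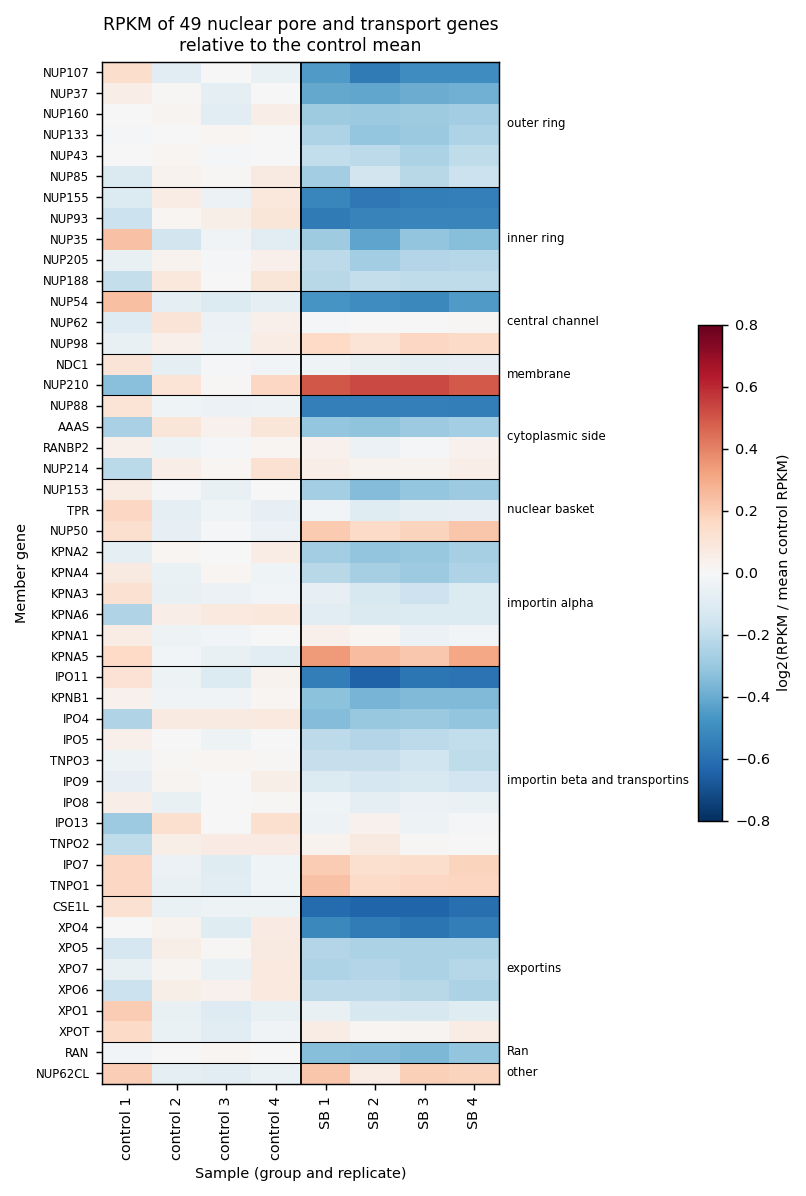
Level of each of the 49 members in each of the 8 samples, as log2 of RPKM over the gene's mean control RPKM (blue below, red above), with genes ordered by role. The 4 SB columns are blue throughout the outer and inner rings and red for NUP210, NUP50, NUP98, KPNA5, IPO7 and TNPO1; genes that did not pass, such as NUP62CL, are tinted too, and control replicate 1 departs from the other 3 controls in both directions.

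The channel, membrane, cytoplasmic and basket nucleoporins did not move together. In the central channel NUP54 fell, NUP98 rose and NUP62 did not pass. NUP54 and NUP62 sit in the same channel complex. NUP58, measured as NUPL1 and outside the rule, was lower with overlap between groups (log2 fold change -0.14, limma adjusted p = 0.0407). NUP54 measured 61.2, 49.1, 48.0 and 49.0 RPKM in control and 37.4, 36.8, 36.2 and 37.9 RPKM in SB, and fell by 28.5% (log2 fold change -0.47, SE 0.071, limma adjusted p = 0.000306). Its control replicate 1 was far above the other controls, and without that sample the change was -0.39. NUP62 measured 32.5, 37.4, 33.7 and 35.9 RPKM in control and 34.5, 35.0, 34.8 and 35.1 RPKM in SB, so that all SB values lay within the control range (log2 fold change 0.000523, SE 0.045, limma adjusted p = 0.992). Of its exon bases, 20.4% are shared with other genes, among them a gene model on the same strand known only by its identifier, IL4I1 and ATF5. ATF5, on the opposite strand, rose by 0.74 on the log2 scale, from 3.12 to 5.87 RPKM. The part of this sharing in the value of NUP62 was not tested. NUP98, a barrier nucleoporin that also occurs away from the pore, measured 22.9, 24.5, 23.2 and 24.8 RPKM in control and 26.6, 25.7, 26.7 and 26.5 RPKM in SB. The groups did not overlap and the mean rose by 10.5% (log2 fold change 0.14, SE 0.037, limma adjusted p = 0.00829). Once each library was corrected for GC content and gene length, with the replicate number as a block, the change of NUP98 was 0.00716 (limma adjusted p = 0.847).

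Of the membrane nucleoporins, NUP210 rose and NDC1 did not pass. NUP210 spans the envelope and reaches into its lumen, and its abundance is known to differ widely between cell types. It measured 19.2, 26.1, 24.3 and 27.1 RPKM in control and 34.1, 34.8, 34.8 and 34.0 RPKM in SB, and every SB sample exceeded every control. The mean rose by 42.5%, from 24.2 ± 3.5 to 34.4 ± 0.422 RPKM (log2 fold change 0.50, SE 0.089, limma adjusted p = 0.000768). NUP210 is GC-rich at 58.4%, control replicate 1 was its lowest control, and the change was 0.40 without that sample and 0.31 after the GC and length correction with the replicate block (limma adjusted p = 0.000705). NDC1, which anchors the pore in the membrane, measured 47.8, 42.2, 44.3 and 43.8 RPKM in control and 43.4, 42.8, 42.1 and 42.6 RPKM in SB (log2 fold change -0.0566, SE 0.042, limma adjusted p = 0.253).

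On the cytoplasmic side NUP88 and AAAS fell, while RANBP2 and NUP214 did not pass. NUP88, partner of NUP214 in the mRNA export platform, measured 40.5, 36.6, 36.3 and 36.5 RPKM in control and 25.7, 25.6, 25.6 and 25.5 RPKM in SB. The 4 SB samples were nearly equal and all below control, and the mean fell by 31.7% (log2 fold change -0.53, SE 0.041, limma adjusted p = 4.63e-06). RABEP1, on the opposite strand, shares 40.4% of the exon bases of NUP88 and did not pass itself, at 28.5 RPKM in control and 26.8 RPKM in SB. RANBP2, the large filament protein that binds RAN, measured 24.3, 22.9, 23.3 and 23.8 RPKM in control and 24.1, 22.8, 23.3 and 24.1 RPKM in SB. Its group ranges were almost identical (log2 fold change -0.000748, SE 0.035, limma adjusted p = 0.986). RANBP2 has near copies in the RGPD family, so its reads may be split among them. AAAS fell by 0.28 on the log2 scale (limma adjusted p = 0.00608), and NUP214 measured 11.8 ± 1.15 RPKM in control and 12.1 ± 0.106 RPKM in SB, and was lower only under the GC and length correction with the replicate block among the alternatives run (log2 fold change -0.12, limma adjusted p = 0.0316).

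The nuclear basket gave one gene in each class. NUP153, which ties the basket to the pore and to the lamina, measured 49.6, 47.3, 45.8 and 47.8 RPKM in control and 39.4, 37.5, 38.5 and 39.0 RPKM in SB. It fell by 19.0% with no overlap (log2 fold change -0.30, SE 0.036, limma adjusted p = 7.01e-05). NUP50, a mobile basket protein that helps release cargo from importin α, measured 34.2, 29.9, 31.0 and 30.3 RPKM in control and 36.2, 34.9, 35.4 and 36.5 RPKM in SB. It rose by 14.0%, again with no overlap (log2 fold change 0.19, SE 0.046, limma adjusted p = 0.0053). TPR, the main basket filament, measured 86.2, 72.8, 75.2 and 73.4 RPKM in control and 75.9, 71.8, 73.1 and 73.4 RPKM in SB. Its groups overlapped (log2 fold change -0.0603, SE 0.055, limma adjusted p = 0.352), and its control replicate 1 was the highest of the 8 samples. NUP62CL, a NUP62 relative placed in no group, did not pass (log2 fold change 0.16, limma adjusted p = 0.0557), but was higher without control replicate 1 (0.22, limma adjusted p = 0.000472).

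**Figure D4:**
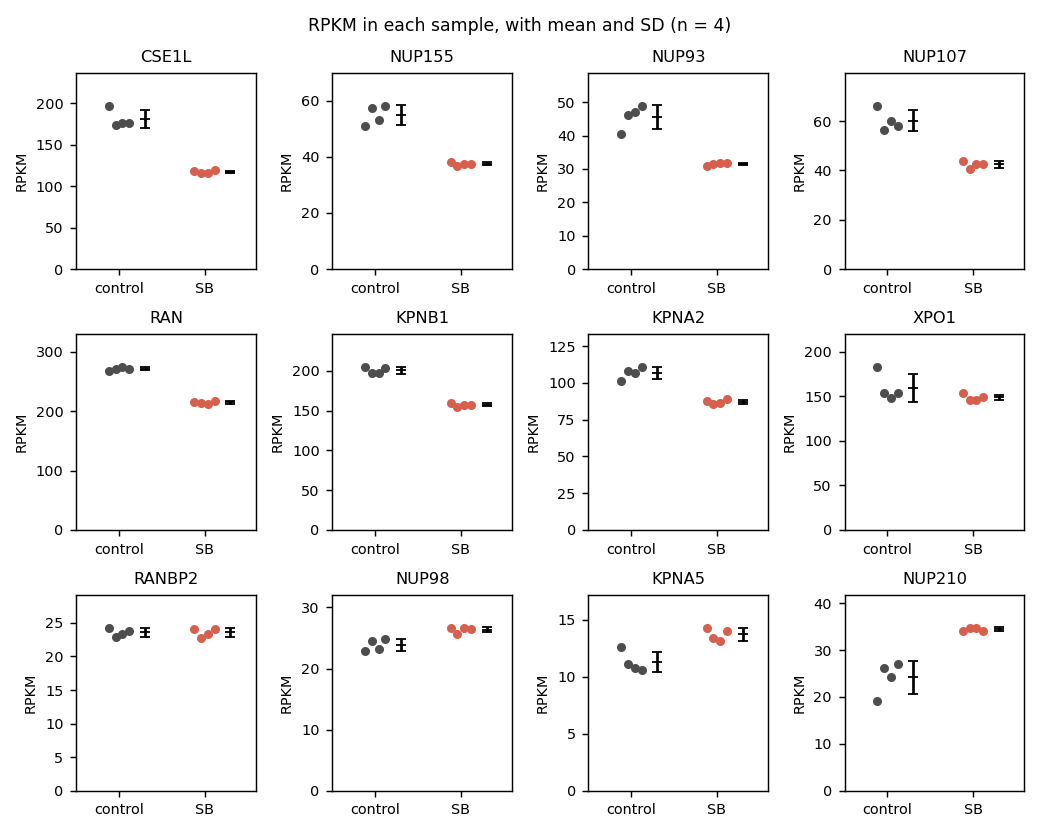
RPKM of 12 members in each of the 8 samples (points, control replicates 1 to 4 in grey and SB replicates 1 to 4 in red, left to right), with the group mean and SD as bars (n = 4) and the axis from 0. CSE1L, NUP155, NUP93, NUP107, RAN, KPNB1 and KPNA2 lie lower in SB without overlap, NUP98, KPNA5 and NUP210 higher without overlap, and XPO1 and RANBP2 overlap.

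Among the transport receptors, 13 of 24 were lower, 3 were higher and 8 did not pass, against 15, 3 and 5 of 23 nucleoporins. Of all genes, 32.6% were lower and 33.0% higher. In control, the receptors and RAN held the highest levels per length. RAN, at 272 ± 2.99 RPKM, was followed by KPNB1 at 200.4 ± 3.9, CSE1L at 181 ± 11.0, XPO1 at 159 ± 16.0, IPO5 at 141 ± 3.27, XPOT at 128 ± 10.1 and KPNA2 at 107 ± 4.33 RPKM. Control values of CSE1L and XPO1 overlapped, as did those of IPO5 and XPOT. Below KPNA2 the first nucleoporin was NUP205 at 87.6 ± 2.84 RPKM, which overlapped NUP133 at 84.4 ± 0.867. The lowest members were KPNA5 at 11.3 ± 0.888 RPKM, NUP214 and XPO4.

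The importin α adaptors, which recognise the classical nuclear localisation signal, changed in both directions. KPNA2 and KPNA4 fell, KPNA5 rose, and KPNA1, KPNA3 and KPNA6 did not pass. The lower calls, 2 of 6, were near the 32.6% of all genes, and the higher calls, 1 of 6, were below the 33.0% of all genes. KPNA2, the most abundant of them and typical of proliferating cells, measured 101, 108, 107 and 111 RPKM in control and 87.9, 85.8, 86.4 and 88.8 RPKM in SB. It fell by 18.4% (log2 fold change -0.29, SE 0.038, limma adjusted p = 0.000113), and by 0.15 on the log2 scale after the GC and length correction with the replicate block. KPNA5 measured 12.6, 11.1, 10.8 and 10.6 RPKM in control and 14.3, 13.4, 13.1 and 14.0 RPKM in SB. It rose by 21.6% with no overlap (log2 fold change 0.26, SE 0.054, limma adjusted p = 0.00186), and by 0.41 on the log2 scale under the same correction. As a share of the summed RPKM of the 6 adaptors, KPNA2 held 48.8 ± 1.19% in control and 45.1 ± 0.464% in SB, and KPNA5 held 5.15 ± 0.493% and 7.08 ± 0.163%. The share of KPNA2 ran from 47.1% to 49.8% in control and from 44.6% to 45.5% in SB, so the groups were apart. KPNA3 did not overlap between groups but missed the threshold (log2 fold change -0.11, limma adjusted p = 0.0552). KPNA6 changed by -0.10 (limma adjusted p = 0.231), and by -0.17 without control replicate 1 and -0.22 under the same correction, where it was lower (limma adjusted p = 0.000139 and 0.0107).

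Of the 11 importin β relatives and transportins, 6 fell, 2 rose and 3 did not pass (all genes: 32.6% lower, 33.0% higher). KPNB1, the main import receptor and the partner of importin α, measured 205, 197, 197 and 203 RPKM in control and 160, 155, 157 and 157 RPKM in SB. It fell by 21.5% with wide separation (log2 fold change -0.35, SE 0.032, limma adjusted p = 1.16e-05). The largest fall of the class was that of IPO11, an importer of ubiquitin-conjugating enzymes, at 18.3, 16.4, 15.7 and 17.2 RPKM in control and 11.5, 10.8, 11.3 and 11.2 RPKM in SB (log2 fold change -0.55, SE 0.047, limma adjusted p = 8.17e-06). IPO5, which carries ribosomal proteins and histones, measured 145, 141, 137 and 141 RPKM in control against 122, 119.8, 122 and 123 RPKM in SB. It fell by 13.8%, less than KPNB1 but also without overlap (log2 fold change -0.21, SE 0.032, limma adjusted p = 0.00029). IPO4, IPO9 and TNPO3 fell by 0.30, 0.12 and 0.18 on the log2 scale, and 96.1% of the exon bases of IPO4 are shared with a read-through gene model on the same strand. IPO8, IPO13 and TNPO2 did not pass with all samples. IPO13 was lower without control replicate 1 (log2 fold change -0.0942, limma adjusted p = 0.0454), and IPO8 and TNPO2 were lower under the GC and length correction with the replicate block (-0.0839 and -0.11, limma adjusted p = 0.0389 and 0.0241).

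TNPO1 and IPO7 rose. TNPO1, the receptor for RNA-binding proteins with a proline-tyrosine signal, measured 68.3, 58.5, 57.1 and 59.5 RPKM in control and 71.5, 67.6, 68.2 and 68.5 RPKM in SB. The mean rose by 13.3% (log2 fold change 0.18, SE 0.056, limma adjusted p = 0.0163), with control replicate 1 inside the SB range, and the change was 0.24 without that sample. IPO7, an importer of ribosomal proteins, measured 83.7, 72.3, 70.0 and 73.1 RPKM in control and 86.0, 81.8, 82.4 and 84.5 RPKM in SB. It rose by 11.9% (log2 fold change 0.16, SE 0.055, limma adjusted p = 0.024), and here too control replicate 1 overlapped the SB samples. The call of IPO7 was lost when control replicate 2, 3 or 4 or SB replicate 1 or 4 was left out (limma adjusted p = 0.0616, 0.0675, 0.0575, 0.0631 and 0.0573).

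Of the 7 exportins, 5 fell, against 32.6% of all genes, and XPO1 and XPOT did not pass. CSE1L, which returns importin α to the cytoplasm, measured 197, 174, 176 and 176 RPKM in control and 118, 116, 116 and 119 RPKM in SB. The mean dropped from 181 ± 11.0 to 117 ± 1.57 RPKM (log2 fold change -0.62, SE 0.045, limma adjusted p = 3.1e-06), and the change was -0.58 without control replicate 1. XPO4, an exporter of the translation factor eIF5A, measured 12.7 ± 0.601 RPKM in control and 8.67 ± 0.172 RPKM in SB (log2 fold change -0.50, limma adjusted p = 5e-06). XPO5, which exports microRNA precursors, XPO6, which exports actin, and XPO7 fell by 0.24, 0.22 and 0.23 on the log2 scale. XPO1, the general receptor for leucine-rich export signals, measured 183, 153, 148 and 153 RPKM in control and 153, 146, 146 and 149 RPKM in SB. Apart from the high control replicate 1 the groups nearly coincided (log2 fold change -0.10, SE 0.063, limma adjusted p = 0.202; -0.03 without that sample). XPOT, the tRNA exporter, measured 128 ± 10.1 RPKM in control and 131 ± 2.02 RPKM in SB (log2 fold change 0.0441, limma adjusted p = 0.479), and was higher without control replicate 1 (0.10, limma adjusted p = 0.00767).

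RAN, the GTPase that gives transport its direction, was the most abundant member. It measured 268, 272, 275 and 272 RPKM in control and 215, 214, 212 and 218 RPKM in SB. The mean fell by 20.9% (log2 fold change -0.34, SE 0.03, limma adjusted p = 1.01e-05), and by 0.21 on the log2 scale after the GC and length correction with the replicate block (limma adjusted p = 0.00268).

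Transport genes whose symbols fall outside the rule were listed separately, and 55 of the 57 listed were measured. Of these 17 were higher, 27 were lower and 11 did not pass, against 33.0% higher and 32.6% lower of all genes. The median log2 fold change was -0.11. Without control replicate 1, 19 were higher and 28 lower, against 37.6% and 37.9% of all genes. In the RAN cycle, RCC1, the exchange factor that loads RAN with GTP in the nucleus, measured 123, 132, 129.8 and 135 RPKM in control and 105, 106, 105 and 103 RPKM in SB. It fell by 19.3% with no overlap (log2 fold change -0.31, SE 0.037, limma adjusted p = 7.32e-05). RANGAP1, which triggers GTP hydrolysis in the cytoplasm, measured 45.5, 60.7, 64.6 and 62.3 RPKM in control and 75.1, 78.9, 77.5 and 76.5 RPKM in SB. It rose by 32.1% (log2 fold change 0.41, SE 0.095, limma adjusted p = 0.00392), and by 0.30 on the log2 scale without control replicate 1, its lowest control. RANBP1 and NUTF2, named after their values were seen, fell by 39.9% and 30.6%. RANBP1 is a cofactor of RANGAP1 and NUTF2 the importer of RAN itself. Of the 9 RAN cycle and adaptor genes, 4 fell, 2 rose and 3 did not pass (all genes: 32.6% lower, 33.0% higher).

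**Figure D5:**
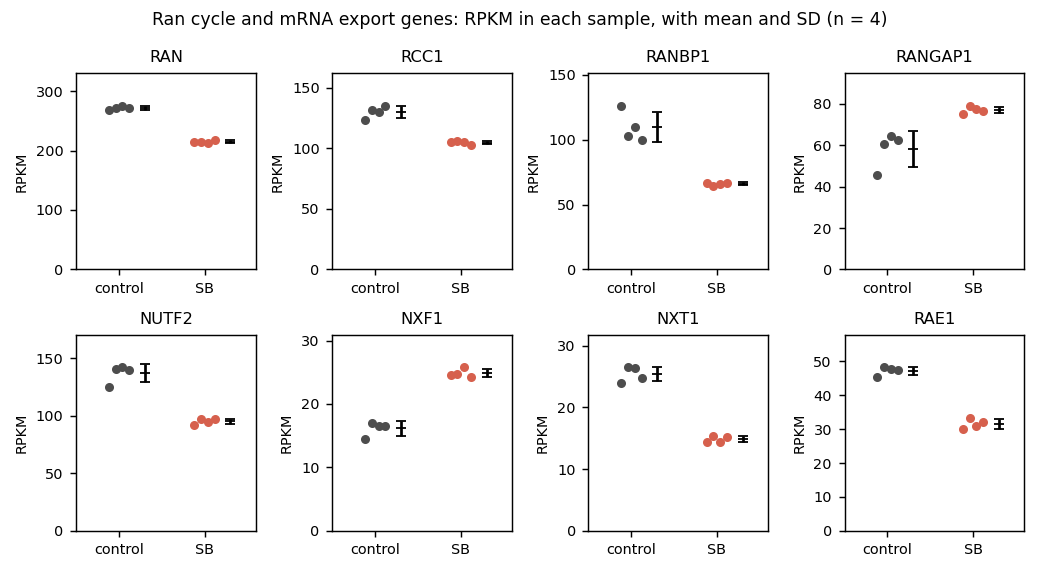
RPKM of RAN, 4 RAN cycle genes (RCC1, RANBP1, RANGAP1, NUTF2) and 3 mRNA export genes (NXF1, NXT1, RAE1) in each sample (points, control grey, SB red, replicates 1 to 4 left to right), with mean and SD (n = 4) and the axis from 0. RANGAP1 and NXF1 lie higher in SB and the other 6 genes lower, none with overlap between the groups.

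The mRNA export receptor split between its subunits. NXF1, the large subunit, measured 14.5, 17.0, 16.6 and 16.5 RPKM in control and 24.6, 24.7, 25.8 and 24.3 RPKM in SB. It had the largest rise of the related list, 53.8% (log2 fold change 0.59, SE 0.05, limma adjusted p = 7.16e-06). NXT1, the small subunit that pairs with it, measured 24.0, 26.5, 26.3 and 24.8 RPKM in control and 14.4, 15.3, 14.4 and 15.2 RPKM in SB. It had the largest fall of that list and fell by 41.7% (log2 fold change -0.74, SE 0.042, limma adjusted p = 9.49e-07). In control NXT1 was the higher of the pair on the RPKM scale in all 4 samples, and in SB NXF1 was the higher in all 4. Of the 22 measured mRNA export genes, 13 fell, 4 rose and 5 did not pass (all genes: 32.6% lower, 33.0% higher). Among those that fell, named after their values were seen, were RAE1 of the related nucleoporins (log2 fold change -0.57) and, in the export group, the pore helicase genes DDX19A and DDX19B (-0.39 and -0.56), SARNP (-0.56) and the cap-binding NCBP2 (-0.51).

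Of the 15 lamina and envelope genes of the same list, 9 rose, 4 fell and 2 did not pass (all genes: 33.0% higher, 32.6% lower). Their median log2 fold change was 0.16. Without control replicate 1 the counts were 10 higher and 4 lower (all genes: 37.6% and 37.9%). Their summed RPKM was 669.7 to 697 in control and 675 to 688 in SB. The genes named here were picked after their values were seen. SUN1 and SUN2, which join the nuclear skeleton to the cytoskeleton, rose by 0.39 and 0.54 on the log2 scale (limma adjusted p = 8.28e-06 and 0.000333). LEMD2 and TOR1AIP1, inner membrane proteins, rose by 0.52 and 0.45. LMNA and LMNB2 rose by 0.32 and 0.24, whereas LMNB1 fell by 0.16 and TMPO and BANF1, partners of the lamina and chromatin, fell by 0.34 and 0.32. Of the 9 measured nucleoporins outside the rule, 6 fell, 2 rose and 1 did not pass (all genes: 32.6% lower, 33.0% higher). The 2 that rose were POM121 and POM121C (log2 fold changes 0.16 and 0.19, limma adjusted p = 0.00522 and 0.0206), near-identical membrane nucleoporins whose reads cannot be told apart with certainty.

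Base composition was set beside the calls because of control replicate 1. The median exon GC content was 43.7% for members that fell, 40.0% for those that rose and 40.3% for those that did not pass. Over all genes it was 46.7%, 50.6% and 48.7% in the same order, so that the order of lower and higher genes was the opposite of that of the members. Under the GC and length correction with the replicate block, 37 members were lower and 7 higher, against 36.5% and 34.3% of the 14088 genes in that fit. The part of GC content in the changes of single genes was not tested further. Library scaling also entered the counts: without the authors' scaling factors, which ran from 0.956 to 0.968 in control and from 1.03 to 1.04 in SB, the median of all genes moved from 0.0045 to 0.0791, and 23 members were lower and 10 higher, against 23.1% and 43.0% of all genes.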

How the data were processed

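RNA from 4 control and 4 SB-treated cultures was sequenced by the authors as 50 bp single reads from a stranded total RNA kit, mapped to hg38 with TopHat 2.1.0 and counted per gene with featureCounts 1.5.0. The strand setting of the counting is not given in the sources used here. The authors dropped genes that did not exceed a CPM of 1 in 2 or more samples, scaled library sizes with TMM in edgeR 3.16.5 and deposited RPKM values for 14526 genes. Their columns of log2 fold change, mean log2 CPM, p-value and FDR were not used, and 0 further columns of per-sample values were left unused. The column headers state no unit. The scaling by depth was checked on the values, from which whole reads were recovered for 100% of genes within a tolerance of 0.02 reads (largest deviation 0.000121), as the smallest whole numbers with the observed ratios. These ratios are taken within a gene, so the check cannot show the division by gene length. Comparisons of level between genes rest on that division, which was not checked.

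Groups came from the sample labels. The test was limma 3.58.1 (lmFit and eBayes, R 4.3.3) on log2(RPKM + 1), 4 against 4, p-values being adjusted across the 14526 genes (Benjamini-Hochberg), with no further filter. A fold change on this scale understates that of low genes. All 49 members were tested. The value of 1 hepatocyte marker is not reported here. The test and the read recovery were also run on simulated data. For the test, few genes were changed there and no sample departed as control replicate 1 does, so that run does not cover the conditions of these data. The methods call the samples biological replicates, and p-values measure the spread between these samples. Gene positions are from GENCODE 44 on hg38 and promoter windows from RefSeq. Members, role groups and the related list were chosen with earlier results of these data known. Named genes were, per role group, the largest rise and fall past the threshold, plus a list of core transport genes whatever their change. Others are said to be chosen after their values were seen, or are given with their group. Alternatives were a pseudocount of 0.1, a mean RPKM of at least 1, no TMM factors, median-of-ratios scaling, voom on the recovered reads, the replicate number as a block, a GC and length correction with that block, and leaving out each sample.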

Additional observations from a re-analysis of the deposited data

Results flagged for a closer look

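In the control group, replicate 1 was far from the other 3 on log2(RPKM + 1) for 4 of the named genes. The gap from its value to the nearest other control, as a share of the range of the 4 controls, was 0.915 for NUP88, 0.907 for NUP54, 0.895 for CSE1L and 0.842 for XPO1. In all 4 genes it was the highest control. Among the named genes, 54 groups of 4 samples were looked at, of which chance alone would mark about 2.7. Over all members, 12 of 98 groups were marked, and 10 of these were control replicate 1, in 5 genes as the lowest and in 5 as the highest sample. Without it, NUP88, NUP54 and CSE1L still passed, with log2 fold changes of -0.49, -0.39 and -0.58 (limma adjusted p = 1.68e-07, 1.3e-06 and 1.08e-07), and XPO1 did not (-0.03, limma adjusted p = 0.378).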

How the results depend on the processing

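Of 432 values of 27 named genes under the alternatives, 408 had the sign of the reported value and passed or missed the threshold as it did, and 20 of the genes did so under every alternative run. Without the TMM factors 10 members were higher, against 6, while higher calls over all genes went from 4787 to 6253, and the values of NDC1, RANBP2, TPR and XPO1 changed sign, to 0.0463, 0.10 (limma adjusted p = 0.0226), 0.0436 and 0.00868. That setting also moved NUP50 to 0.29, NUP98 to 0.24, TNPO1 to 0.28, IPO7 to 0.27, NUP153 and KPNA2 to -0.19, IPO5 to -0.11 and RCC1 to -0.20. It ended the calls of AAAS, IPO9, NUP188, NUP85, TNPO3 and XPO6. NUP62 changed sign under median-of-ratios scaling (-0.00345), voom with the replicate block (-0.000107) and the GC and length correction with the block (-0.0582). The last of these also moved TNPO1 to 0.0936, and brought XPO1, TPR and RANBP2 past the threshold at -0.0918, -0.15 and -0.0936. Leaving out each sample in turn, NUP62 ranged from -0.032 to 0.0334 and RANBP2 from -0.0138 to 0.0135, and 29 to 31 members were lower and 5 to 8 higher. Over all genes, the same runs gave 4285 to 5511 lower and 4311 to 5459 higher. The replicate block gave 30 members lower and 7 higher (4894 and 4885 over all genes), with KPNA3 and NUP62CL gained and no other member call changed. The labels do not say whether same-numbered samples were handled together. Their deviations correlated at 0.38, 0.327, 0.173 and -0.16 (mean 0.18), against a mean of -0.0541 for other pairs. These values do not settle whether the samples were paired, and the main test took them as unpaired. The lowest read number recovered for a member in any sample was 786, for NUP35, and the 4 samples a group limit the precision of small changes.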
